A study of Mus musculus with 2 samples.

Results

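The 46 genes described here encode the Bmp, activin and Tgf-beta pathway: secreted ligands, their receptors, the Smad proteins that carry the signal, and proteins that restrain or report it. They were taken as a list of named genes, matched by symbol to the newer gene tables (GENCODE release M21), and all 46 were found among 55536 genes, of which 22028 are protein-coding. PolyA RNA was measured in the forebrain of healthy embryos of strain B6NCrl, sexes mixed, with no genotype or treatment named in the labels, at embryonic day 12.5, in 2 libraries. Each library is a pool of tissue, of 120 embryos in pool 1 and of 68 in pool 2, made from 10 ng of RNA, so it averages over many embryos and holds every cell type of the dissected tissue. The labels give 1 group and no treatment, so the data answer which of these genes the tissue expressed, at what level and in which transcripts, and how far the pools differed.

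Ligands of this family are dimers that bind type I and type II receptor kinases together; the type II receptor phosphorylates the type I receptor, which phosphorylates receptor-regulated Smads that enter the nucleus with Smad4. Bmp ligands act mainly through Smad1, Smad5 and Smad9, and activins and Tgf-betas mainly through Smad2 and Smad3. In the embryonic forebrain, Bmps from the dorsal midline are known for patterning the cortical hem and choroid plexus, and Tgf-beta ligands are known for roles in vessels, meninges and progenitors.

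The 46 genes held 0.196% of the 33373776 gene counts of pool 1 and 0.207% of the 34406601 of pool 2. Levels are given in TPM, a relative abundance of transcripts that allows for their length, and each ± is an SD over n = 2 pools. No test was run, because the smallest p that an exact sign-flip test (two-sided) allows for 2 pools is 0.5; whether the pools share litters or a day is not given. Marker genes were set beside the tissue label, from lists chosen with earlier results of these data known, so this is no independent check. Of these, 8 of 8 forebrain markers and 0 of 6 midbrain and hindbrain markers reached a TPM of 1 in both pools. Of the latter, En1 came nearest, at 0.69 and 0.93 TPM from 37 and 52 counts. En2 and Hoxa2 had no counts, which in pool 1 allows up to 0.0411 and 0.0843 TPM (the TPM of 3 counts). The libraries also held RNA of head mesenchyme and meninges (9 of 9 markers), endothelium (7 of 7), pericytes (5 of 5) and red blood cells (6 of 6). In such bulk tissue, fewer cells of a type and less RNA per cell cannot be told apart.

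The list of 46 genes was chosen with earlier results of these data known, so its share of detected genes is a description only. Of the 46 genes, 42 reached a TPM of 1 in both pools, against 58.9% of all protein-coding genes. The 4 that did not were Bmp3 (0.75 and 0.67 TPM in pools 1 and 2), Bmp6 (0.94 and 1.32 TPM), Smad9 (0.13 and 0.19 TPM) and Grem1 (0.34 and 0.45 TPM). The median level of the list was 8.75 TPM, and levels ran from 0.16 TPM for Smad9 to 125 TPM for Fstl1. By role, the median was 2.27 TPM over 14 ligands, 12.9 TPM over 9 type I and type II receptors, and 18.4 TPM over 8 Smads. The machinery that receives and relays the signal was thus measured at higher levels than most of the genes for the ligands.

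**Figure D1:**
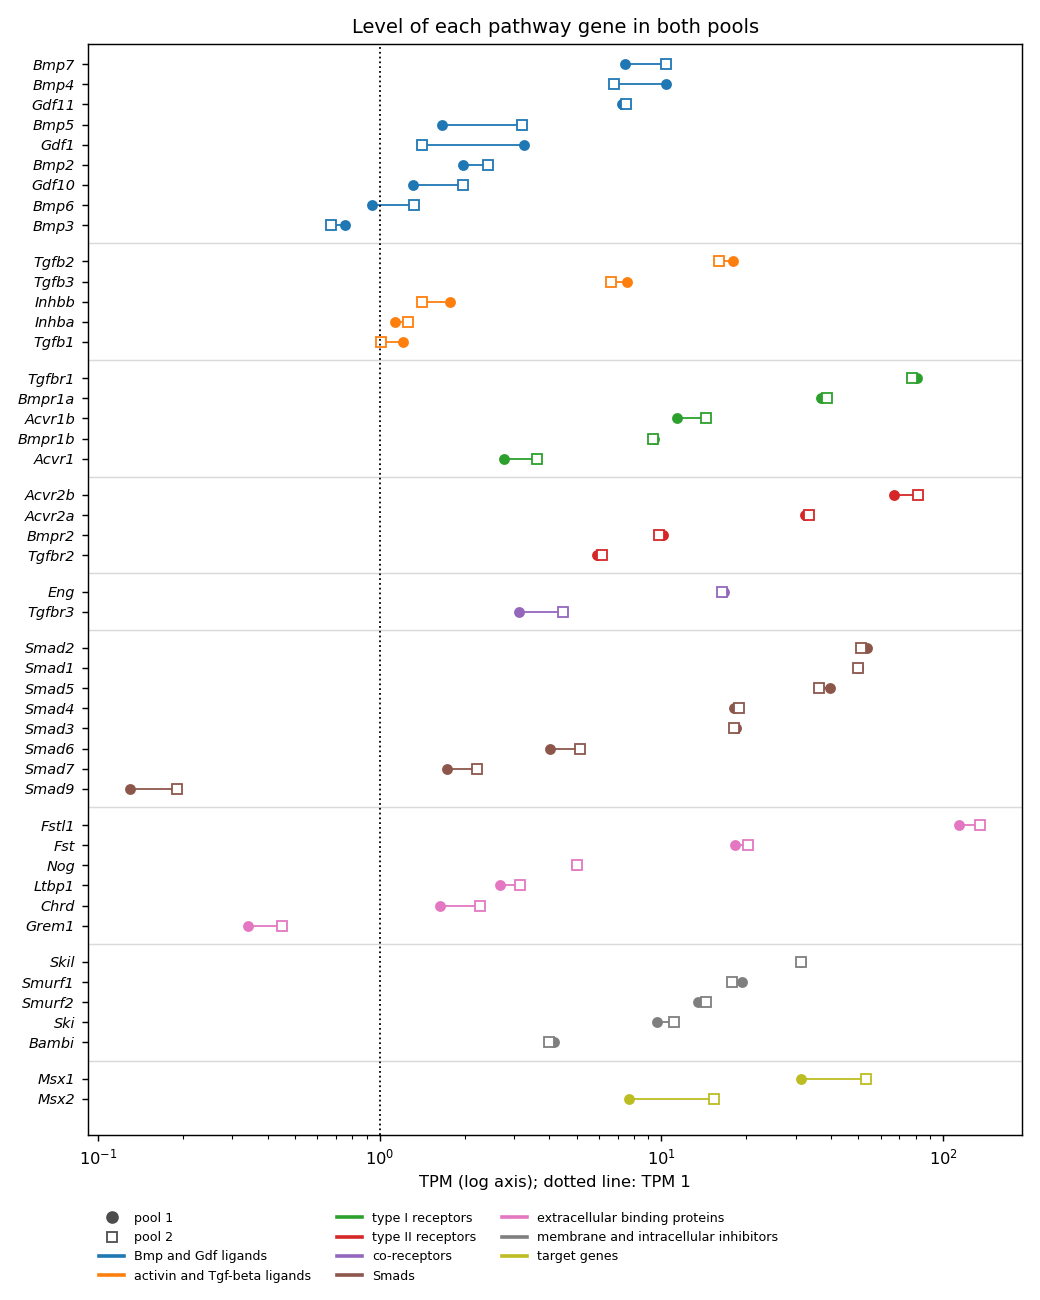
Level of each of the 46 genes in TPM on a log axis, grouped by role, with pool 1 as filled circles and pool 2 as open squares; the dotted line marks a TPM of 1. Receptors and Smads lie mostly to the right of the ligands, and the symbols of the pools overlap for genes such as Smad1 and Nog and lie apart for Msx1, Msx2, Bmp5 and Gdf1.

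Several of the genes produced more than 1 protein-coding transcript, and the bases by which these transcripts differ are shown first because the results on Tgfbr2, Acvr2b, Tgfb2 and Skil turn on them. Each stretch is a multiple of 3 bases long, so its presence keeps the reading frame. All were read from the GENCODE M21 transcripts (GRCm38) and are printed 5' to 3' on the strand of the gene. The Tgfbr2 stretch (chr9:116158271-116158345, minus strand, 75 bases) and the Tgfb2 stretch (chr1:186690721-186690804, minus strand, 84 bases) are whole coding exons. The Skil stretch (chr3:31113503-31113640, plus strand, 138 bases) and the short Acvr2b stretch (chr9:119428201-119428224, plus strand, 24 bases) lie at the edge of a coding exon. The long Acvr2b stretch (chr9:119428353-119428424, plus strand, 72 bases) lies inside a coding exon and is an intron in the coding transcript without it; capitals mark the GT and AG at its ends, the usual ends of an intron.
Tgfbr2: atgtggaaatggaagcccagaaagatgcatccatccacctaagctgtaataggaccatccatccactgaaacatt
Tgfb2: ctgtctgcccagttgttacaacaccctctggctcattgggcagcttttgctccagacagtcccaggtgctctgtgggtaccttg
Skil: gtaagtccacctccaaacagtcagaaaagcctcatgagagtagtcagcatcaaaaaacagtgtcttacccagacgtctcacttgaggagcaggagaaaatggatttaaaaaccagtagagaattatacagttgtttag
Acvr2b short: tcacgtacgagccacccccgacag
Acvr2b long: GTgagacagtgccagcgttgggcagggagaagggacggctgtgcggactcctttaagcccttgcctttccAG

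Among the 9 Bmp and Gdf ligands, 7 reached a TPM of 1 in both pools. Bmp7, a ligand of the dorsal midline, stood at 7.42 and 10.4 TPM (pools 1 and 2). A retained-intron transcript of Bmp7 held 14.1% and 28.5% of that TPM, and the protein-coding transcript stood at 6.38 and 7.41 TPM. Gdf11, which is known for limiting neuron production in several tissues, stood at 7.24 and 7.50 TPM, and its counts differed by less than 1.1-fold. Bmp4, a ligand of the dorsal telencephalon, was listed at 10.4 and 6.77 TPM (pools 1 and 2), while its counts ran the other way, at 188 and 276. The transcript tables show where the level came from. A retained-intron transcript of 258 bases was given 15.6 counts and 44.3% of the gene's TPM in pool 1 and no count in pool 2. The protein-coding transcripts of Bmp4 together stood at 4.43 and 6.24 TPM, higher in pool 2 as the counts were. The lower ligands were Bmp5 (1.67 and 3.20 TPM), Gdf1 (3.25 and 1.41 TPM), Bmp2 (1.98 and 2.42 TPM) and Gdf10 (1.31 and 1.97 TPM).

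Tgfb2 had the highest gene-level TPM of all 14 ligands, at 17.0 ± 1.36 TPM (17.95 and 16.03 TPM in pools 1 and 2). Part of that level came from a retained-intron transcript, which held 34.0% and 26.2% of its TPM, and its protein-coding transcripts summed to 10.3 ± 0.0778 TPM, still above the coding level of Tgfb3, a second Tgf-beta ligand, by a ratio of 1.46 ± 0.139. Of the coding TPM of Tgfb2, 30.9% in pool 1 and 28.5% in pool 2 came from the transcript that holds the 84-base exon printed above. That exon lies in the propeptide part of the precursor, and the transcript without it was the larger in both pools. Tgfb3 stood at 7.53 and 6.65 TPM. Tgfb1 was near the threshold, at 1.21 and 1.01 TPM from 24 and 35 counts. Its protein-coding transcripts came to 0.39 and 0.53 TPM (pools 1 and 2), below a TPM of 1 in both. Of its TPM in pool 1, 37.2% lay in a retained-intron transcript with 3.80 counts and 27.3% in a processed transcript with 1.00 count.

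Activin subunits were low. Inhba, the activin A subunit, stood at 1.13 and 1.26 TPM. Inhbb, the activin B subunit, stood at 1.77 and 1.41 TPM. The counting interval of the pool ratio included 0 for both genes, so at this depth no difference between the pools was detectable.

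The type I receptors spanned a wide range, led by Tgfbr1, the type I receptor for Tgf-beta, at 80.6 and 77.6 TPM. Bmpr1a followed at 37.0 and 38.7 TPM, 4.04 ± 0.139 times the level of the related Bmp receptor Bmpr1b (9.40 and 9.37 TPM). The activin receptor Acvr1b stood at 11.4 and 14.4 TPM, and Acvr1, a Bmp type I receptor, at 2.76 and 3.63 TPM. Tgfbr1 was above 90.0% of all protein-coding genes. The pools did not differ by more than 1.1-fold in the counts of Tgfbr1, Bmpr1a or Bmpr1b.

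Among type II receptors the activin receptors were the highest, with Acvr2b at 67.1 and 81.5 TPM and Acvr2a at 32.4 and 33.5 TPM. Bmpr2, the type II receptor used by Bmps, stood at 10.2 and 9.79 TPM. Tgfbr2, the type II receptor for Tgf-beta, stood at 5.89 and 6.13 TPM, so that Tgfbr1 exceeded its partner 13.2 ± 0.726 fold. Of the co-receptors, Eng, which is known from endothelium, stood at 16.7 and 16.4 TPM, and Tgfbr3, betaglycan, at 3.13 and 4.48 TPM. Endothelial markers were present in both pools, with summed levels of 84.0 and 82.5 TPM over 7 of 7 detected genes; their part in the level of Eng was not tested.

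Both type II receptors with divided coding output used the stretches printed above. For Tgfbr2, the 75-base exon adds 25 residues to the part outside the cell, and the transcript that holds it made up 38.7% of the TPM in pool 1 and 42.3% in pool 2. In the older annotation tables (release M4) these shares were 19.5% and 34.0%, which moves the mean from 40.5% to 26.7%. By expected counts, which do not allow for transcript length, the shares were 60.0% and 63.4%, so which transcript is the larger turns with the unit. For Acvr2b, the short stretch adds 8 residues and was in 78.4% and 76.9% of the coding TPM, or 58.3% on average in the older tables. The long stretch adds 24 residues and was in 56.1% of the coding TPM in pool 1 and 66.7% in pool 2; the transcript without it is not in the older tables, so they give no second value. By expected counts the long stretch was in 43.5% and 54.8%. The pools were close for the short stretch and further apart for the long one, with an SD of 1.07 against 7.47 percentage points.

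**Figure D2:**
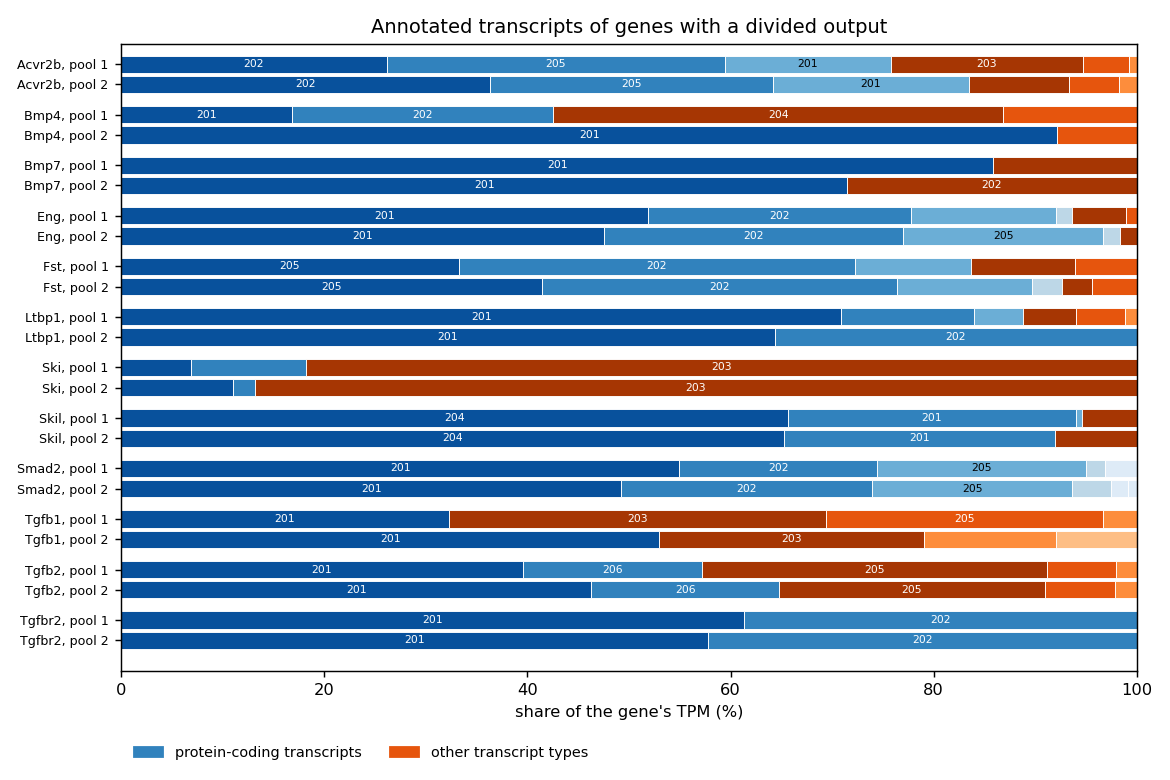
Share of a gene's TPM (%) held by each annotated transcript in each pool, for the 12 genes whose output is divided; blue segments are protein-coding transcripts, orange segments are other types, and numbers are the transcript suffixes. Ski is nearly all orange in both pools, Bmp4 holds a large orange segment in pool 1 that is not seen in pool 2, and the Skil and Tgfbr2 bars look alike in both pools.

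The receptor-regulated Smads of both branches were well expressed, apart from Smad9. Smad1 stood at 49.8 and 49.9 TPM, Smad5 at 39.8 and 36.3 TPM, and Smad9, the remaining Bmp-responsive Smad, at 0.13 and 0.19 TPM from 14 and 22 counts. Together these came to 89.7 and 86.3 TPM (pools 1 and 2). On the activin and Tgf-beta side, Smad2 stood at 53.7 and 51.2 TPM and Smad3 at 18.4 and 18.1 TPM, a sum of 72.1 and 69.3 TPM. Smad2 exceeded Smad3 by a ratio of 2.87 ± 0.0616. Smad4, the common partner, stood at 18.04 and 18.92 TPM.

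The inhibitory Smads, which are induced by the pathway and block it, were lower. Smad6, which acts mainly against Bmp signals, stood at 4.02 and 5.12 TPM, and Smad7 at 1.74 and 2.22 TPM. In Smad2, a 90-base exon adds 30 residues to the N-terminal domain; the form with it is known not to bind DNA directly. Transcripts with this exon made up 78.6% of the TPM of Smad2 in pool 1 and 70.7% in pool 2, and 85.6% on average in the older tables.

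Outside the cell, Fstl1, a secreted follistatin-like glycoprotein, had the highest level of the list at 114 and 135 TPM (pools 1 and 2). Its protein-coding transcripts stood at 88.4 and 96.2 TPM. Fst, which traps activins, stood at 18.2 and 20.3 TPM; its mean of 19.2 TPM was 12.0 TPM in the older tables. The Bmp antagonists were lower: Nog stood at 4.99 and 5.01 TPM, Chrd at 1.63 and 2.27 TPM, and Grem1 at 0.34 and 0.45 TPM. Ltbp1, which anchors latent Tgf-beta in the matrix, stood at 2.68 and 3.14 TPM. Of these 6 genes, 5 had higher normalised counts in pool 2, against 50.6% of all genes, and Nog was level. The counting interval of the pool ratio included 0 for Fst and Grem1 as well as for Nog.

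Inside the cell, Skil, a nuclear repressor of Smad complexes, was the highest of the 5 inhibitors at 31.4 TPM in both pools. Its 138-base stretch, which encodes 46 residues, was in 30.1% and 29.0% of its coding TPM, so the shorter form, known as SnoN2, was the larger; the older tables gave 29.3% on average. Ski, its relative, stood at 9.62 and 11.1 TPM, but 81.8% and 86.9% of that lay in a transcript annotated without a coding sequence. The protein-coding transcripts of Ski came to 1.75 and 1.46 TPM (pools 1 and 2). Ski was the only one of the 46 genes whose leading transcript was not protein-coding; the share among detected protein-coding genes was 8.88%. The ubiquitin ligases Smurf1 (19.3 and 17.8 TPM) and Smurf2 (13.5 and 14.4 TPM), and the pseudoreceptor Bambi (4.14 and 4.00 TPM), each differed by less than 1.1-fold between the pools in counts.

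The homeobox genes Msx1 and Msx2, direct targets of Bmp signals at the dorsal midline and in head mesenchyme, stood at 31.4 and 53.2 TPM and at 7.66 and 15.3 TPM. Both were higher in pool 2. Ratios of the pools are given as log2 of normalised counts, pool 1 over pool 2, so that negative values mean higher in pool 2, with an exact 95% binomial interval that covers counting error only. Each pool is 1 library, so a difference between them has no replicate check.

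Of the 46 genes, 4 differed by 1.5-fold or more, 1 higher in pool 1 and 3 higher in pool 2. Over the 19046 genes whose counts averaged 10 or more the shares were 3.24% and 7.93%, or 11.2% in either direction. The share of the 46 genes past that fold was thus near that of all genes. Of the 14802 protein-coding genes with such counts, 354 passed it higher in pool 1 and 649 higher in pool 2. At 2-fold 1 of the 46 genes passed, Gdf1, against 3.79% of all genes, and at a ratio of 5 to 4 between the pools 16 did, against 23.5%. Msx2 had a log2 ratio of -0.99 (interval -1.17 to -0.81; 381 and 797 counts). Msx1 had a log2 ratio of -0.74 (interval -0.84 to -0.64; 1224 and 2155 counts). Bmp5, a ligand related to Bmp7, had a log2 ratio of -0.79 (interval -1.11 to -0.48; 132 and 241 counts). Gdf10, a Bmp3-related ligand, lay just short of 1.5-fold at -0.57 and passed it in the older tables, at -0.59. Bmp3, a ligand that differs from other Bmps in restraining their signal, also passed there, with a log2 ratio of 0.95 in place of 0.22.

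Gdf1, a ligand that pairs with Nodal, was the gene higher in pool 1, with a log2 ratio of 1.19 (interval 0.65 to 1.80) from 86.1 and 38.9 expected counts. Gdf1 overlaps Cers1 on the same strand and reads were shared between them; Cers1 had 639 and 666 expected counts, and the summed counts of the pair, 725 and 705, gave a log2 ratio of 0.12. The deposited credibility intervals of Gdf1 overlapped between the pools, and the older tables hold no value for it. Its ratio is therefore uncertain.

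**Figure D3:**
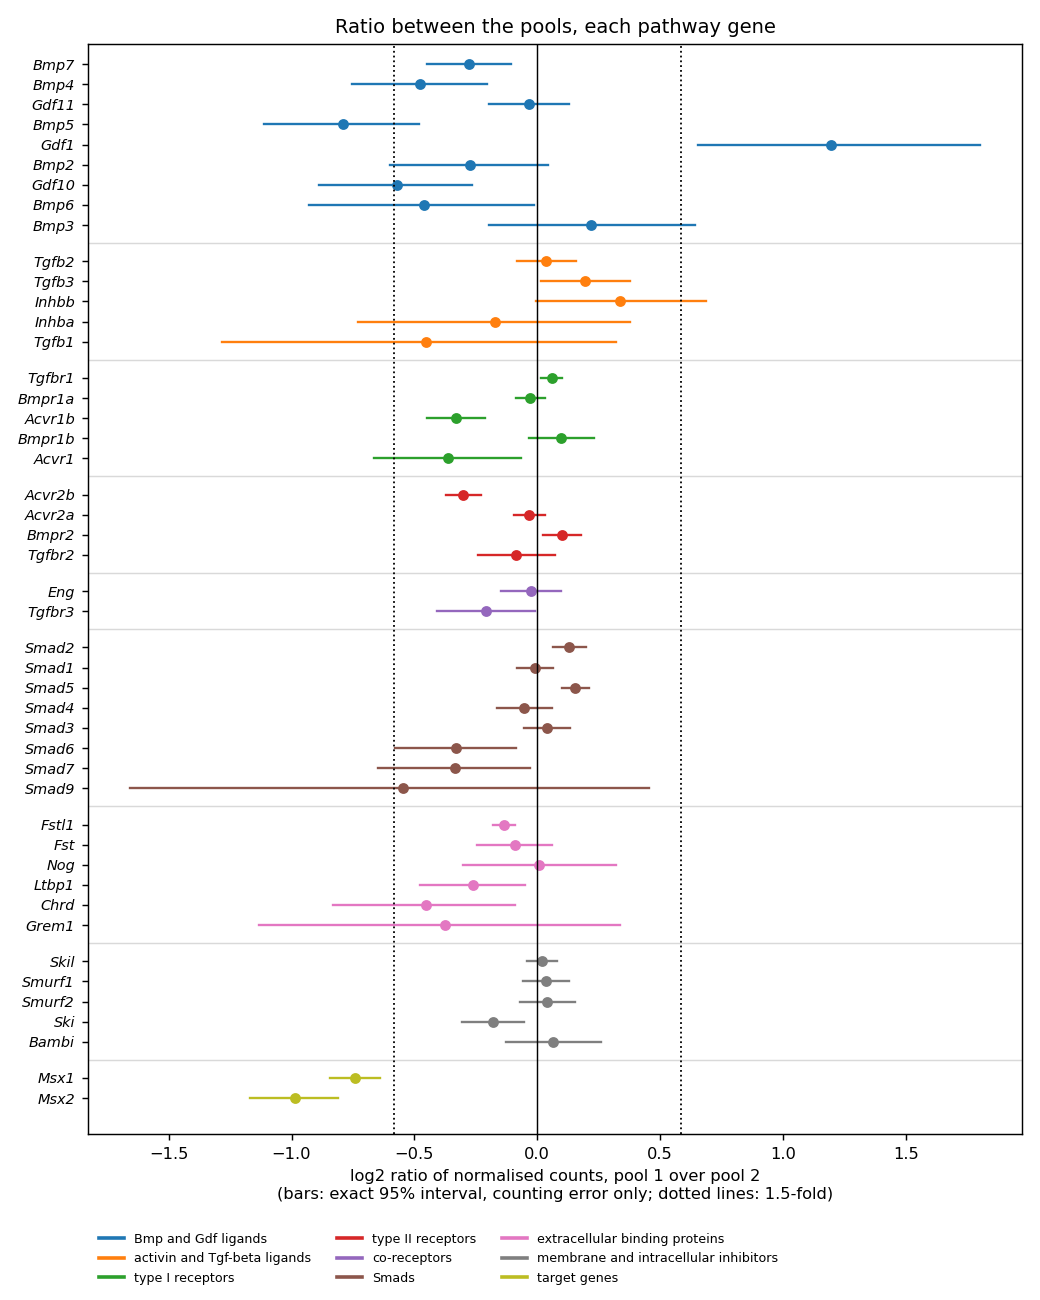
Log2 ratio of normalised counts, pool 1 over pool 2, for each of the 46 genes with its exact 95% interval (counting error only); dotted lines mark 1.5-fold. Msx1, Msx2 and Bmp5 lie left of the lower line and Gdf1 right of the upper one, while intervals of Smad9, Tgfb1 and Grem1 are wide.

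Normalised counts were higher in pool 2 for 30 of the 46 genes, against 50.6% of all genes compared and 6901 of the 14802 protein-coding ones. The median log2 ratio of the list was -0.09, against -0.00 over all genes, and 20 of the 46 lay within 1.1-fold, against 51.3% of all genes. The interval of the ratio left out 0 for 23 genes, 17 of them higher in pool 2, where the shares over all genes were 33.0% and 15.2%. Intervals narrow as counts rise, and the shares over all genes, here and for the credibility intervals that follow, were not matched for counts. The deposited credibility intervals of TPM, which cover the assignment of reads as well, did not overlap for 10 of the 46 genes, against 11.0% of all genes. Of these, 9 were higher in pool 2 (Msx1, Msx2, Bmp5, Bmp7, Gdf10, Acvr1b, Acvr2b, Fstl1 and Ski), against 6.17%, and 1 was higher in pool 1 (Smad5, at a log2 ratio of 0.15). Part of the TPM difference of Bmp7 lay in its retained-intron transcript, at 1.05 and 2.96 TPM. Part of that of Fstl1 also lay outside its protein-coding transcripts, which stood at 88.4 and 96.2 TPM (pools 1 and 2).

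Differences by role were small apart from the targets and some ligands. The median log2 ratio was -0.28 for Bmp and Gdf ligands, 7 of 9 higher in pool 2, and 0.04 for the activin and Tgf-beta ligands. It was -0.03 for type I receptors, -0.06 for type II receptors, -0.03 for Smads, -0.20 for extracellular binding proteins and 0.04 for the membrane and intracellular inhibitors. Scaling by the spike-in totals in place of the TMM method moved the median of all genes to -0.17 and that of the list to -0.25, with 42 of the 46 genes higher in pool 2, against 82.5% of all genes. Under that scaling 10 genes passed 1.5-fold, against 14.1% of all genes, and 9 of them were higher in pool 2, against 12.0%. Small ratios depend on it, such as that of Smad5, which became -0.01, while Msx1, Msx2 and Bmp5 kept their direction.

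Marker genes of several cell types also differed between the pools, in either direction. In pool 2 all 9 markers of mesenchyme and meninges were higher (median log2 ratio -0.39), with summed levels of 657 and 801 TPM; Foxc1, a defining factor of this tissue, had a log2 ratio of -0.88. Choroid plexus markers, 4 of 5 of them higher in pool 2, summed to 96.6 and 140 TPM, and Ttr stood at 42.0 and 82.5 TPM. Cortical hem markers, 5 of 6 higher in pool 2, summed to 61.6 and 81.0 TPM. Red cell markers, 6 of 6 higher in pool 2, summed to 6259 and 8502 TPM. None of these lists had a defining marker at 0. Endothelial markers (median 0.08), pericyte markers (0.10), radial glia markers (0.03) and neuronal markers (0.15) lay near or above the median of all genes (-0.00), and surface epithelium markers had a median of 0.26. The forebrain markers had a median of 0.12, and 3 of 8 passed 1.5-fold, all higher in pool 1. These were Dlx2 (0.66), Nkx2-1 (0.83) and Gsx2 (0.83), factors of the ventral forebrain, while Emx1, a factor of the dorsal forebrain, had a log2 ratio of -0.31. The part of these cell types and forebrain regions in the higher Msx1, Msx2 and Bmp5 of pool 2 was not tested.

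**Figure D4:**
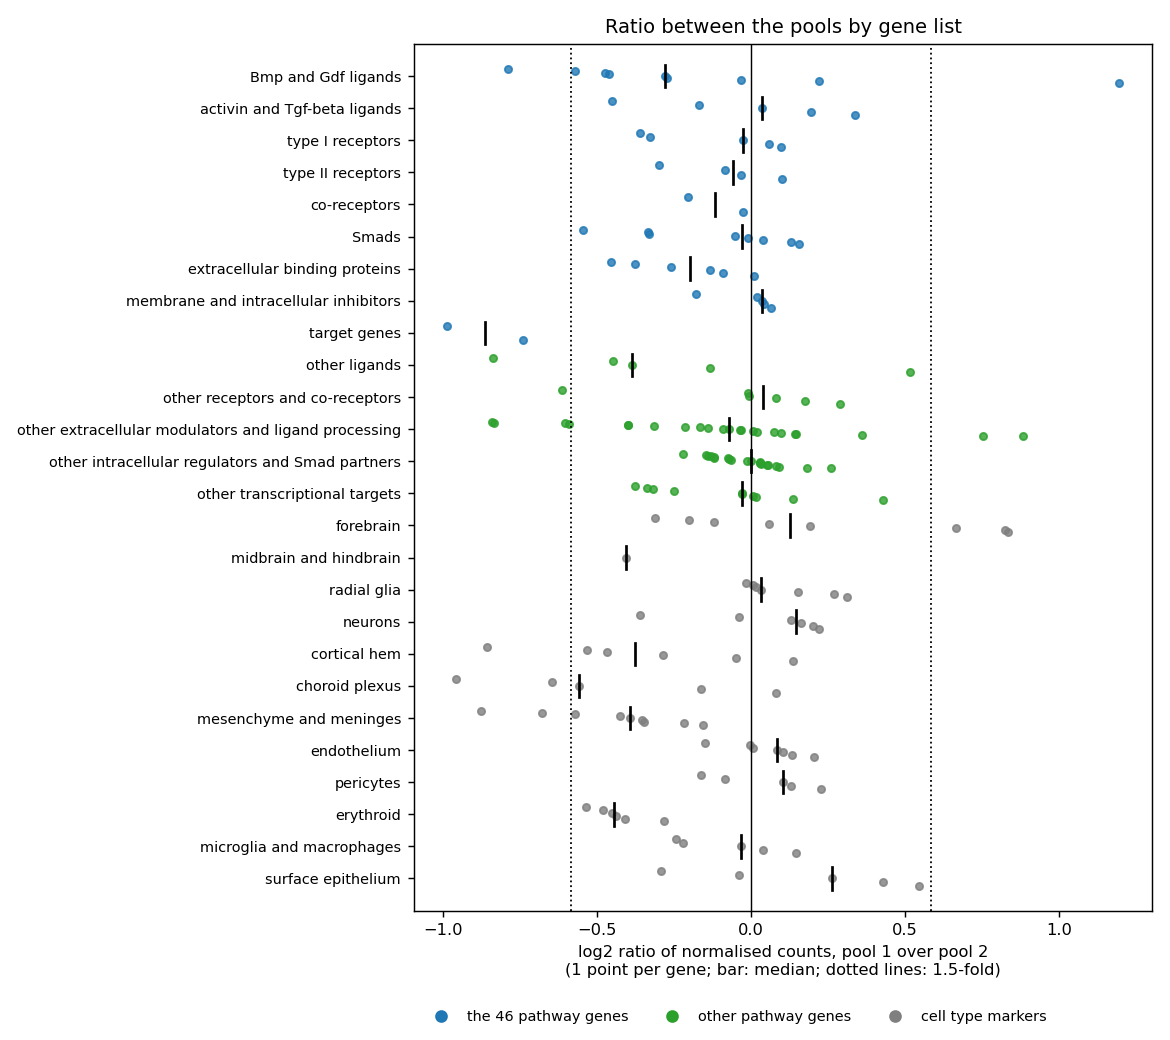
Log2 ratio of normalised counts, pool 1 over pool 2, with 1 point per gene and a bar at the median of each list: the 46 genes by role in blue, other pathway genes in green, cell type markers in grey. The target genes, mesenchyme and meninges, choroid plexus, cortical hem and erythroid lists lie left of 0, and the receptors, Smads, radial glia, endothelium and pericyte lists lie around it.

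The promoters of the 3 genes past 1.5-fold and higher in pool 2 are printed, a choice made from their ratios, which fixes their shared direction. With them is that of Smurf2, the promoter of the list with the most matches to either motif searched. RefSeq windows (GRCm38.p6, 250 bases before to 50 after the start) matched 34 of the 46 genes and gave 41 windows. CAGAC, the core of the Smad3 and Smad4 binding element, and GGCGCC, a GC-rich Smad element, were searched on both strands and are in capitals; GTCTG is CAGAC on the other strand, and the motifs share no bases in these windows. The windows are Msx1 (chr5:37824536-37824835, minus strand), Msx2 (chr13:53472731-53473030, minus strand), Bmp5 (chr9:75775115-75775414, plus strand) and Smurf2 (chr11:106920666-106920965, minus strand).
Msx1: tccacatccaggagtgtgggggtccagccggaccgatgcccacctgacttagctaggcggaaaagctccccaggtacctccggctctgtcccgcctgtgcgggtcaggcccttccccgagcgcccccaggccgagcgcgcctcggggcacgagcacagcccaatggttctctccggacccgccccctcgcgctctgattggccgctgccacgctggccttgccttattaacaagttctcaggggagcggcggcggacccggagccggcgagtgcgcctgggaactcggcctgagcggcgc
Msx2: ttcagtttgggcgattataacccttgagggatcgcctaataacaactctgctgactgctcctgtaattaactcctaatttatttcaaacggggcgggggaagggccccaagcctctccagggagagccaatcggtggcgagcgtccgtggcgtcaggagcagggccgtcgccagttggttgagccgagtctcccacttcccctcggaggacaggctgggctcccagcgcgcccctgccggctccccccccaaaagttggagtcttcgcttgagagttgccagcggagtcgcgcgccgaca
Bmp5: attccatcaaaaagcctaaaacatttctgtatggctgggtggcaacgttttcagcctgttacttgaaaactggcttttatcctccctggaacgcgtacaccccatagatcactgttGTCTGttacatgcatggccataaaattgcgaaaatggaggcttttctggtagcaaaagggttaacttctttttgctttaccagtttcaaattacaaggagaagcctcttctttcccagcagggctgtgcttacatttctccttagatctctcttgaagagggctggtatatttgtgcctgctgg
Smurf2: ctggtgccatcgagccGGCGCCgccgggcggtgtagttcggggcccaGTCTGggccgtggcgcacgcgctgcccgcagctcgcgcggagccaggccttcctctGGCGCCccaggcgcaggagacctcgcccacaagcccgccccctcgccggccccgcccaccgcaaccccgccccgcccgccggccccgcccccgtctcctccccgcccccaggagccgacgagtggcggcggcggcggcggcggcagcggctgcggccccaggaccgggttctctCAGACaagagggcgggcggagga

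The Msx1 and Msx2 windows held neither motif, the Bmp5 window held CAGAC at 1 place, and the Smurf2 window held each motif at 2 places. Over the 41 windows, CAGAC was found in 20, or 48.8%, beside 49.6% of all 32851 windows. GGCGCC was found in 13 of the 41, or 31.7%, beside 11.9% of all windows and 15.3% of those of protein-coding genes. By gene, it was found for 12 of the 34 matched, as overlapping windows of Smad5 were counted separately. A Gdf1 window with it (chr8:70315525-70315824) lies well before the M21 start of Gdf1 at 70329817. The windows of the list were also richer in G and C, with a median of 66.7% against 56.3% for protein-coding genes, and the part of base composition in the GGCGCC share was not tested. A match describes letters in a window, and a window without one says nothing about binding elsewhere.

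How far the annotation bears on the levels was seen by comparing releases. Of the 41 genes with a mean TPM of 1 or more in both, 2 differed by 1.5-fold or more, against 6.30% of genes: Gdf10, at 1.64 TPM in the newer and 3.63 TPM in the older tables, and Fst. The TPM ratio and the count ratio of the pools had different signs for 6 of 43 genes, against 13.4% of genes; these were Bmp4, Tgfb1, Eng, Smurf2, Nog and Skil, whose TPM was equal in the pools. The library kit does not mark strand, so reads of genes on opposite strands cannot be told apart where their exons overlap. By whole gene spans, introns included, 16 of the 46 genes overlap a gene on the opposite strand. Whether their exons overlap was not examined, and the share over all genes was not computed. Several of the partners had no counts in either pool. The largest partner in counts was Txndc5, opposite Bmp6, with 4333 and 4691 expected counts against 70.0 and 102 for Bmp6.

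Other genes of the pathway, from 5 lists of 87 genes in all, gave 55 that reached a TPM of 1 in both pools. That is 63.2%, near the 58.9% of all protein-coding genes. Among 19 further ligands, 3 did: Inha (4.62 and 5.13 TPM), Gdf5 (1.63 and 2.26 TPM) and Gdf9 (1.58 and 2.21 TPM), while Bmp10 had no count, which in pool 1 allows up to 0.0322 TPM. Of 9 further receptors and co-receptors, 4 did, led by Rgmb at 53.1 TPM, Neo1 at 37.1 TPM and Rgma at 31.1 TPM; Rgma and Rgmb are guidance molecules that bind Bmps, and Neo1 encodes neogenin, their receptor. Acvrl1, an endothelial type I receptor, stood at 5.04 TPM, and the Nodal co-receptors Tdgf1 and Cfc1 had no count, which in pool 1 allows up to 0.137 and 0.150 TPM.

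Extracellular modulators were detected for 17 of 26 genes, led by Twsg1, a Bmp-binding partner of chordin, at 78.7 TPM, and Bmp1, a protease that cleaves chordin, at 21.5 TPM. Intracellular regulators were detected for 21 of 22 genes, led by Fkbp1a, which binds type I receptors, at 417 TPM. Of 11 further targets, 10 were detected, led by Id4 at 184 TPM, Id3 at 156 TPM and Id2 at 127 TPM. Id3 had a log2 ratio of -0.38 and Id1, named after its values were seen, of -0.34. Id2 (0.02) and Id4 (-0.03) were level between the pools, and Msx3 had a log2 ratio of 0.43. Of the 10 targets whose counts averaged 10 or more, 4 were higher in pool 1 and 6 in pool 2, with a median of -0.03. Past 1.5-fold were 2 genes higher in pool 1, Chrdl1 and Fstl4, and 6 higher in pool 2, among them Gdf6, Hfe2, Htra1, Tll1 and Fstl3. These were 8 of the 65 genes whose counts averaged 10 or more, a share near the 11.2% of all genes. It was above the share of protein-coding genes, of which 354 of 14802 passed higher in pool 1 and 649 higher in pool 2.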

How the data were processed

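PolyA RNA-seq of 2 pools of mouse forebrain was analysed. Per the labels, cDNA was primed with oligo-dT from 10 ng of RNA, with ERCC spike-ins, and fragmented by tagmentation. The authors deposited expected counts, in which a read with several matches is divided among genes or transcripts. The deposited TPM values are scaled per length and library over all entries including spike-ins. A posterior mean TPM and credibility bounds, also deposited, were handled as scores. Per the file headers and the labels, the assembly is mm10 with GENCODE M21 (used here) and M4 (alternative); no aligner or quantifier is named (not given in the sources used here). Entries that name no gene (5.74e-05% and 9e-05% of counts) and spike-ins (3.58% and 3.28%) stayed out of library sizes.

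Expected counts were rounded for scaling by TMM (edgeR 4.0.16) or size factors (DESeq2 1.42.0), with a prior count of 1 and a minimum mean count of 10 for ratios. The calculation of the ratio was run on simulated counts, with independent noise for each gene and no sharing of reads between genes or transcripts. That run bears on the calculation only and cannot support the ratios of the real pools. Intervals cover counting error only, as reads without molecular identifiers may be PCR copies. Members, gene lists and motifs were chosen with earlier results of these data known. Every member may be named; of other pathway lists of up to 10 genes any, and of longer ones the 4 highest, the 2 lowest and those past 1.5-fold. A gene that the rule covers is left out of the text. Transcripts were named where a non-coding transcript led or held at least 20% of TPM, or at least 2 coding ones did. Protein sequences were not used here.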

Additional observations from a re-analysis of the deposited data

How the results depend on the processing

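Detection changed with the threshold: 27 of the 46 genes reached a TPM of 5 in both pools, and the count of 42 moved to between 41 and 44 with the older tables, the posterior mean TPM or a threshold of 0.5. The count in 1 pool alone was 42 to 43. The median level, 8.75 TPM, was 9.34 TPM in the older tables, 6.99 TPM over protein-coding transcripts and 7.60 to 8.44 TPM in 1 pool alone. The 4 genes past 1.5-fold became 10 with spike-in totals (14.1% of all genes), 16 at a ratio of 5 to 4 (23.5% of all genes) and 1 at 2-fold (3.79%); the median ratio became -0.25 with spike-in totals and -0.13 in the older tables. The median share of the leading transcript, 93.3% of TPM, was 96.5% by expected counts, 95.1% in the older tables and 92.5% to 95.2% in 1 pool alone. Of the shares of the 6 coding stretches, an analysis added after the data were seen, 5 moved by more than the SD of the pools when counts replaced TPM, and the Tgfbr2 share became 61.7%. The causes were not tested. No paired analysis was possible because the labels give 1 group. Genes with few counts (Smad9, Tgfb1, Grem1) have wide intervals.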
